A study of Mus musculus with 51 samples.

Results

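The POU transcription factor genes of neural cells were examined in mouse cells on the way from a neural progenitor to an astrocyte. The 7 genes, of 22359 coding genes in the annotation, were chosen by name: Pou3f1, Pou3f2, Pou3f3, Pou2f1, Pou2f2, Pou4f1 and Pou6f1. For each of them, all peaks of H3K27ac and H3K4me1 that overlapped the gene body or the 50 kb on either side of it were collected, and this stretch is called the window of the gene. The cells were astroglial neural progenitors derived from embryonic stem cells of the C57/BL-6 background (aNPC), grown in medium with N2, EGF and FGF-2, and their progeny after 1 day (eA, early astrocytes) and 5 days (lA, late astrocytes) in medium with serum and LIF. The labels give no mutation, transgene or knockdown for these groups. Each of the 6 peak lists was made from 2 replicates merged into 1 set of reads, so that no error between cultures can be given and no test between stages was made. In the windows lay 84 aNPC, 71 eA and 65 lA peaks of H3K27ac, out of 79413, 83433 and 92700 in the whole lists. They held 126, 130 and 131 H3K4me1 peaks, out of 154238, 185478 and 208333. With 20 kb on either side in place of 50 kb, the H3K4me1 peaks numbered 79, 75 and 72, so that their order over the stages was turned. With lists of equal length and 50 kb they numbered 126, 112 and 104, and their order was turned as well.

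POU factors bind DNA through a POU-specific domain and a POU homeodomain, which together read the octamer and related sequences. The class III members Pou3f1 (Oct6), Pou3f2 (Brn2) and Pou3f3 (Brn1) act in neural progenitors and in the cortex, where they overlap in function in the making of upper-layer neurons. Pou2f1 (Oct1) is expressed in nearly all cells, Pou2f2 (Oct2) is best known from B lymphocytes, Pou4f1 (Brn3a) marks sensory neurons and Pou6f1 (Brn5) is found in brain and other tissues. H3K27ac marks active promoters and enhancers. H3K4me1 marks enhancers whether active or not, so a site with H3K4me1 alone is commonly called primed. Because the lists come from populations of cells, a site marked in few cells cannot be told apart from one marked weakly in many.

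Of the markers used to check the cells, the progenitor genes Nes, Sox2, Vim and Fabp7 had a promoter H3K27ac peak at all stages, as did the astrocyte genes Gfap and Slc1a3. Aqp4, the water channel of mature astrocytes, had one in lA only, Gja1 in eA and lA, and S100b in aNPC only, whereas Aldh1l1 had none at any stage. Of the neuronal markers, Tubb3 had one at all stages and Syt1 in aNPC, and Rbfox3 and Dcx had none. None of the oligodendrocyte lineage markers Olig2, Sox10 and Mog or the stem cell markers Nanog, Zfp42 and Pou5f1 had a promoter H3K27ac peak.

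Some stretches of DNA that carry the results are given first, read from the mm9 genome on the strand of the gene. The first set holds the 300 bases around the summit of a distal H3K27ac peak of each class III gene, the strongest distal one of its window at the stage named, and of a Pou3f3 site, 14.6 kb downstream, that bore H3K4me1 in aNPC and H3K27ac only later. Distal means that a peak overlapped no promoter of any coding gene, and it includes peaks within genes. None of these windows held the exact letters of the octamer or of the Brn2 motif, so they have no capitals.
Pou3f1 upstream site, H3K27ac in aNPC, chr4:124325179-124325478: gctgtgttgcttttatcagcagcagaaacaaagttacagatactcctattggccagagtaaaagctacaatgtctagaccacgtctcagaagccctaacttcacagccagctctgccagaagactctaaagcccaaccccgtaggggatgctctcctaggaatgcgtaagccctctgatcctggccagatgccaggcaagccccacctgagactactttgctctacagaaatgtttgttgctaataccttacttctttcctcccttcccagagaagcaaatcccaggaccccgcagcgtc
Pou3f2 upstream site, H3K27ac in lA, chr4:22421819-22422118: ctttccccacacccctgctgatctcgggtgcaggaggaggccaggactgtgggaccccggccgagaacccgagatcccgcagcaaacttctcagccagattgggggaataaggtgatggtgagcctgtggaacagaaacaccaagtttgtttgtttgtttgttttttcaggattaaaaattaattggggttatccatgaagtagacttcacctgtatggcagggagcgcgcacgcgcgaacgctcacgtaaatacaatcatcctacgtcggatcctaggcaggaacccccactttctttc
Pou3f3 downstream site, H3K27ac in eA, chr1:42769954-42770253: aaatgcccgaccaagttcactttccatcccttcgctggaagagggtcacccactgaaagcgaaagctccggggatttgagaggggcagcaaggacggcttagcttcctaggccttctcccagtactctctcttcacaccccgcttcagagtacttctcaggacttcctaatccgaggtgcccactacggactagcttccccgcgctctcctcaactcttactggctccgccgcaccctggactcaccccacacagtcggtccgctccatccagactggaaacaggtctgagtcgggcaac
Pou3f3 primed site, H3K4me1 in aNPC, chr1:42768422-42768721: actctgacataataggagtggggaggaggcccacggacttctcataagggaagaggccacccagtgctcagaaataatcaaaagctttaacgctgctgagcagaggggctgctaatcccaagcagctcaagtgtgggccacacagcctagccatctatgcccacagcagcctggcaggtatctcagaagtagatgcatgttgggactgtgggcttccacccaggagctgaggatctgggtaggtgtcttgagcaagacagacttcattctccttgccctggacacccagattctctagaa

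The second set holds the 300 bases around the summit of a promoter peak at 3 genes whose promoters differed in their marks: Pou3f1, with both marks in aNPC, Pou3f3, with H3K27ac alone, and Pou2f2, with H3K4me1 alone. CpG dinucleotides are in capitals. They number 16 in the Pou3f1 stretch, 25 in that of Pou3f3 and 20 in that of Pou2f2.
Pou3f1 promoter, H3K27ac in aNPC, chr4:124333918-124334217: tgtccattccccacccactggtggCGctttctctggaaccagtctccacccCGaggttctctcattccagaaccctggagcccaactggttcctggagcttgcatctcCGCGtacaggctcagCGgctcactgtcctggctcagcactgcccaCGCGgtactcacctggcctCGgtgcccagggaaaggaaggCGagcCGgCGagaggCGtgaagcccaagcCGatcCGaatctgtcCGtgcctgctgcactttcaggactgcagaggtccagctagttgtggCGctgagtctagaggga
Pou3f3 promoter, H3K27ac in aNPC, chr1:42753379-42753678: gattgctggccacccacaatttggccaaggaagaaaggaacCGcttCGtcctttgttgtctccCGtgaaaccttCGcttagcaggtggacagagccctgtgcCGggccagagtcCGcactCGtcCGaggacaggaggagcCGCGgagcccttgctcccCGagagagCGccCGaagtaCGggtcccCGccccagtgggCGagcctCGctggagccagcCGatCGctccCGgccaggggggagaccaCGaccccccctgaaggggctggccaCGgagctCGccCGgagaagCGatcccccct
Pou2f2 promoter, H3K4me1 in aNPC, chr7:25918329-25918628: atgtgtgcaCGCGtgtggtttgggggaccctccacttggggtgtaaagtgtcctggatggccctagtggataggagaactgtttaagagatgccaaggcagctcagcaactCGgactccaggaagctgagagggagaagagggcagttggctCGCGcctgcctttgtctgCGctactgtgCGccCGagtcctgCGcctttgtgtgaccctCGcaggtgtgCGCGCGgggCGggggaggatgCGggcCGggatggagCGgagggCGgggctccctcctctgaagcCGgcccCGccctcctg

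At the promoters, which run from 1 kb before a coding start site to 100 bp past it, the 7 genes fell into 4 patterns. H3K27ac was present at 6 of 7 members in aNPC and eA and at 4 in lA, while 50.6%, 53.2% and 48.2% of all coding genes had such a peak. With the summit itself required inside the promoter, the counts were 3, 6 and 3, so the patterns hold for overlap of a peak with the promoter. H3K4me1 was present at 6 of 7 at every stage, whereas the stages in turn had it at 55.4%, 53.6% and 52.7% of coding genes. Pou3f2, Pou2f1 and Pou6f1 bore both marks at all stages, a combination found at 33.9% of coding genes. At Pou2f1 both marks met at an internal start site only, and the upstream promoter had H3K27ac without H3K4me1. Pou3f1 and Pou4f1 bore H3K4me1 throughout and H3K27ac in aNPC and eA but not in lA. H3K4me1 throughout with H3K27ac in aNPC and not in lA was seen at 3.31% of coding genes. Pou3f3 bore H3K27ac throughout and H3K4me1 at no stage, as did 4.26% of coding genes. Pou2f2 was the reverse, with H3K4me1 throughout and no H3K27ac, as in 5.41% of coding genes. In aNPC alone, a promoter with H3K4me1 and without H3K27ac was found at 11.8% of coding genes. These combinations were picked out after the peaks had been seen, and the percentages describe how common each was.

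**Figure D1:**
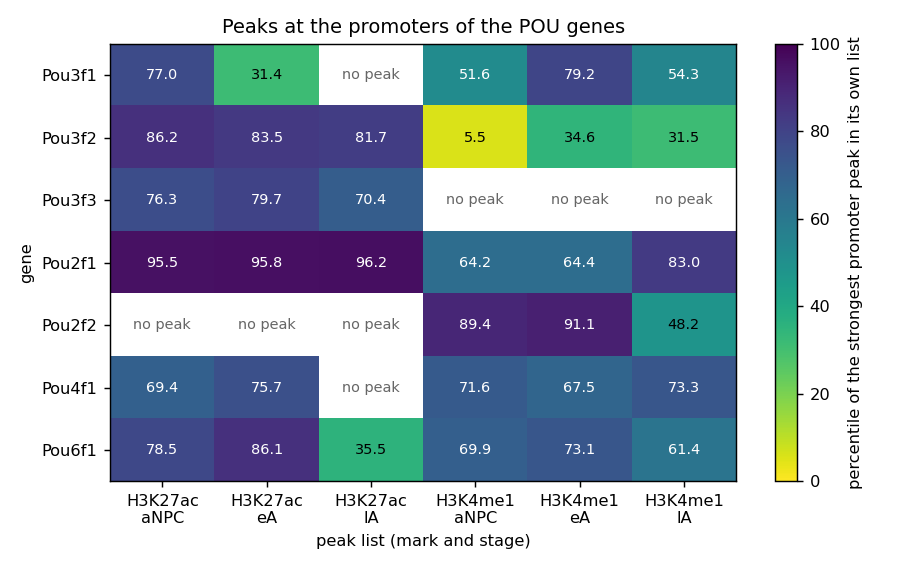
Promoter peaks of the 7 POU genes (rows) in the 6 peak lists (columns). The number and colour give the percentile of the strongest promoter peak among the −log10 q values of its own list, from 0 to 100, and white cells have no peak. Pou3f3 has no H3K4me1 peak, Pou2f2 no H3K27ac peak, and Pou3f1 and Pou4f1 have no H3K27ac peak in lA. For Pou2f1, the H3K27ac values are of the upstream start site and the H3K4me1 values of an internal start site.

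The strength of each promoter peak is given as its −log10 q, the significance at its summit in the authors' peak calls, and as its percentile in its own list, because the depth of the lists is unknown and values of different lists cannot be compared. At the main start site of Pou2f1, the H3K27ac peak had a −log10 q of 129 in aNPC, 108 in eA and 52.7 in lA, which placed it at percentiles 95.5, 95.8 and 96.2. This was the highest rank of a member's promoter in every H3K27ac list. At Pou3f2, the strongest promoter peak stood at percentiles 86.2, 83.5 and 81.7 of the H3K27ac lists. Its H3K4me1 promoter peaks were weak, at percentiles 5.5, 34.6 and 31.5. The Pou3f3 promoter peak ranked at percentiles 76.3, 79.7 and 70.4 for H3K27ac. For Pou3f1, the H3K27ac peak had a −log10 q of 31.2 in aNPC and 6.07 in eA, at percentiles 77.0 and 31.4, and the H3K4me1 peak over the same stretch lay at percentiles 51.6, 79.2 and 54.3. Pou4f1 had its promoter H3K27ac peak at percentiles 69.4 in aNPC and 75.7 in eA. In lA its nearest H3K27ac peak lay in the gene's intron, 622 bp downstream of the start site and outside the promoter as defined here. With promoters widened to 1 kb before and after every start site, Pou4f1 counted as marked in lA and the number of members with promoter H3K27ac there was 5. At Pou2f2, the stronger of the H3K4me1 promoter peaks stood at percentiles 89.4, 91.1 and 48.2.

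All 7 promoters had more CpG than the median coding gene. Over the same 1 kb before to 100 bp past the most upstream start site, the ratio of observed to expected CpG was 0.521 at Pou2f2, 0.656 at Pou6f1, 0.706 at Pou3f2, 0.848 at Pou3f1, 0.875 at Pou3f3, 0.980 at Pou4f1 and 1.05 at Pou2f1, with a median of 0.406 over all coding genes. The share of G and C ran from 55.5% at Pou4f1 to 72.3% at Pou3f1, against a median of 49.3%. Pou3f3 and Pou3f1, which differed in H3K4me1, had CpG ratios near each other, and Pou2f2, the member without promoter H3K27ac, had the lowest of the 7.

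Across the windows, the median member carried more of both marks than the median coding gene, although by the share of the window covered Pou2f2 and Pou4f1 lay below it for H3K27ac at all stages, Pou2f1 for H3K27ac in lA, and Pou3f2 and Pou4f1 for H3K4me1 at all stages. The median member had 9, 12 and 11 H3K27ac peaks at the successive stages, against medians of 5, 6 and 6 over all coding genes. For H3K4me1 the medians were 19, 19 and 18 peaks, against 11, 13 and 14. Length of the windows differs, so the share of the window covered by peaks was used to compare genes. The median member was covered by H3K27ac over 5.57%, 6.45% and 5.49% of its window, against 2.44%, 2.70% and 2.72%, and by H3K4me1 over 8.09%, 9.05% and 8.71%, against 5.05%, 6.11% and 6.29%. H3K27ac covered less of the window in lA than in aNPC at 5 of the 7 members, whereas this held for 38.3% of coding genes. The sign was not stable at Pou2f2, where the difference of -0.164 percentage points was 0.0162 with flanks of 20 kb and 0 with nearest start sites, nor at Pou4f1, where 0.414 became -0.139 and -0.0593. For H3K4me1 it held at 3 of 7, against 23.6% of coding genes.

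**Figure D2:**
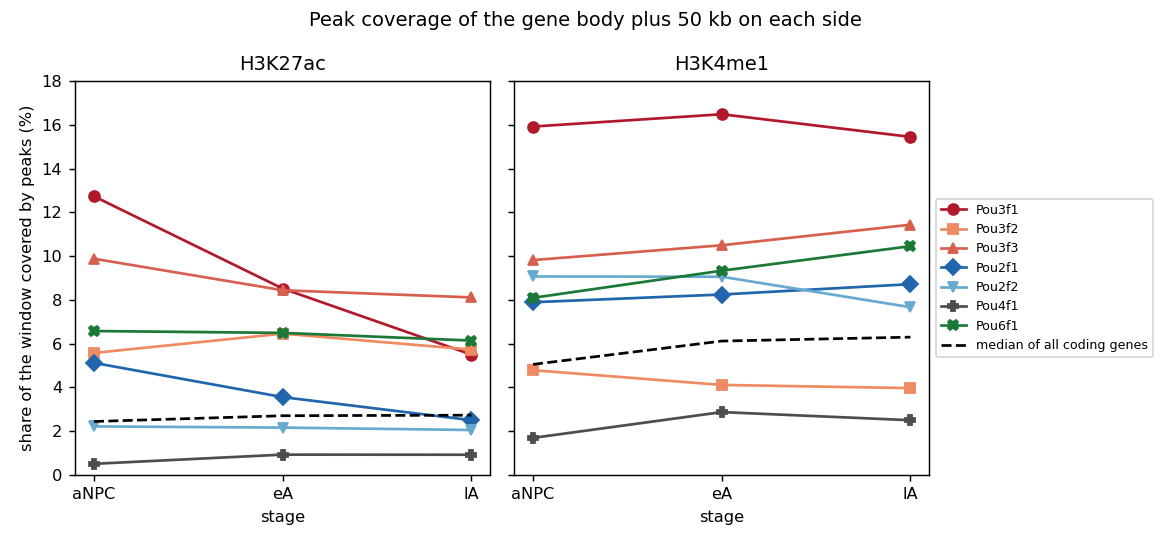
Share of the window (gene body plus 50 kb on each side) covered by peaks, in percent, at the 3 stages for H3K27ac (left) and H3K4me1 (right). Each line is 1 gene and the dashed line is the median over 22359 coding genes. Pou3f1 runs from 12.7% to 5.49% for H3K27ac and stays between 15.4% and 16.5% for H3K4me1.

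Pou3f1, which is also active in Schwann cells, showed the widest difference between the stages. Its window was covered by H3K27ac over 12.7% in aNPC, then 8.51% in eA and finally 5.49% in lA. The difference of lA minus aNPC, -7.24 percentage points, was -11.1 with flanks of 20 kb, where the window is shorter too. This difference was -4.63 with only the peaks whose nearest start site was that of Pou3f1, still as a share of the full window. The share covered in aNPC placed Pou3f1 at percentile 99.7 of all coding genes, and the share covered in lA at percentile 80.1. H3K4me1 covered 15.9%, 16.5% and 15.4%. The window had 20, 12 and 11 peaks of H3K27ac, and 23, 24 and 24 of H3K4me1. The gene lies on chr4:124334896-124337899 on the plus strand and shares its window with 3100002H09Rik, Utp11l and Fhl3, whose promoters account for some of these peaks.

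Close to Pou3f1, the difference between the stages was larger than in the window as a whole. The strongest distal H3K27ac peak of aNPC, at chr4:124324931-124325736, had its summit 9.6 kb upstream of the start site, between genes, with a −log10 q of 82.6 at percentile 91.0 of its list. No H3K27ac peak overlapped it in eA or lA. H3K4me1 was present there in aNPC and eA and not in lA. The first sequence above is from this summit. On either side of it, smaller H3K27ac peaks at 10.6 kb and 8.6 kb upstream were likewise called in aNPC only. Over the gene itself, H3K27ac peaks had summits 313 bp, 1106 bp and 1738 bp downstream of the start site in aNPC, 1 peak with its summit 1844 bp downstream was called in eA, and none was called in lA. Within 5 kb of the start site the count of H3K27ac peaks was thus 5 in aNPC, 3 in eA, but 0 in lA. The nearest H3K27ac peak in lA was 5.1 kb upstream and lay at percentile 37.2.

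At 15.1 kb downstream of Pou3f1, the marks differed from each other. H3K4me1 formed a broad peak there at all stages, at chr4:124349065-124350740 in aNPC, with a −log10 q of 46.3, 36.2 and 35.3 and percentiles of 97.2, 96.7 and 98.2. H3K27ac was called within it only in aNPC, as a pair of small peaks at percentiles 11.1 and 42.4. By contrast, the distal site 34.0 kb upstream, which is nearer to 3100002H09Rik than to Pou3f1, bore both marks at all stages, as did the promoter of Utp11l. Of the 15 distal H3K27ac peaks of aNPC in the Pou3f1 window, 11 had none in lA, or 73.3%, against 52.5% of the distal peaks of the whole aNPC list. H3K4me1 was called in lA at 6 of these 11, or 54.5%, near the 55.4% of the whole list, and 5 of the 6 had it in aNPC too.

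At Pou3f2, in contrast, 5 of the 8 stretches with H3K27ac at any stage had it at all stages, while at Pou3f1 this was 4 of 24. The other members had 7 of 17 at Pou3f3, 7 of 12 at Pou6f1, 7 of 28 at Pou2f1, 3 of 10 at Pou2f2 and 1 of 6 at Pou4f1. Over the whole lists the share was 26.0% of 132992 stretches. The gene is a single exon on the minus strand at chr4:22413791-22415480, and no other coding gene reaches into its window. It had 6, 7 and 7 H3K27ac peaks, which covered 5.57%, 6.45% and 5.72% of the window. Percentiles among coding genes were 83.2, 86.6 and 81.9. Its 10, 11 and 8 H3K4me1 peaks covered 4.78%, 4.11% and 3.96%, under the median of all coding genes at every stage.

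Apart from the promoter and the exon, the H3K27ac of Pou3f2 lay at 3 distal sites shared by all stages. The adjoining pair 6.5 kb and 7.1 kb upstream held the strongest peak at each stage. The nearer of them had a −log10 q of 57.5 in aNPC, then 80.0 in eA and then 71.9 in lA, and its percentile was 86.2, 92.5 and 98.3. The farther one stood at percentiles 89.0, 92.6 and 91.1. The other site, 10.9 kb downstream, stood at percentiles 83.1 and 80.2 in aNPC and eA, and its stronger peak in lA at 94.3. H3K4me1 overlapped 3 of 4 distal H3K27ac peaks in aNPC, 2 of 5 in eA and 1 of 5 in lA. In lA, an H3K4me1 peak 5.6 kb upstream reached the edge of the nearer upstream site, and another, 11.8 kb downstream, lay beside the downstream site. The distal peaks called at 1 stage only, 46.8 kb upstream in aNPC and 22.3 kb upstream and 8.7 kb downstream in eA, were weak, at percentiles from 9.88 to 30.4.

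Pou3f3, the gene of Brn1, was acetylated around its start site at all stages without H3K4me1 of the same stage. It lies on the plus strand at chr1:42753991-42757052, next to 2610017I09Rik, the other coding gene that the annotation places in the window. H3K27ac covered 9.88%, 8.44% and 8.11% of the window (percentiles 97.9, 94.6 and 94.1), in 14, 14 and 12 peaks. With flanks of 20 kb, the H3K27ac share in lA minus that in aNPC was -5.62 percentage points, against -1.77 with 50 kb. H3K4me1 covered 9.82%, 10.5% and 11.4%, in 20, 19 and 22 peaks. Within 5 kb of the start site H3K27ac peaks numbered 7, 8 and 5 at the successive stages, and none of them overlapped an H3K4me1 peak of the same stage. For Pou3f1 the count without H3K4me1 was 3 of 5 in aNPC, 0 of 3 in eA and none to count in lA, and for Pou3f2 it was 1 of 2, 1 of 2 and 2 of 3. At Pou2f1 it was 2 of 4, 0 of 1 and 1 of 2, all those of Pou4f1 and Pou6f1 overlapped H3K4me1 of the same stage, and Pou2f2 had no H3K27ac peak that near. Of all H3K27ac peaks within 5 kb of the most upstream start site of a coding gene, 18.9% in aNPC, 21.4% in eA and 29.7% in lA were without H3K4me1 of the same stage. Among the 11576 coding genes with H3K27ac peaks that near at all stages, 219, or 1.89%, had none with H3K4me1 of the same stage.

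In aNPC, the strongest of these peaks near Pou3f3 lay 2.0 kb and 2.5 kb upstream of the start site, with −log10 q of 64.5 and 60.5, at percentiles 87.8 and 86.9. The former had a counterpart in eA, at percentile 55.8, and none in lA. An H3K27ac peak over the untranslated end of the exon was not called in aNPC but was in eA, 2.3 kb downstream at percentile 79.2, and in lA, 2.4 kb downstream at percentile 70.2. Farther upstream, peaks 10.3 kb and 10.9 kb from the start site in aNPC had counterparts at the later stages, whereas the site at 12.5 kb had an H3K27ac peak at percentile 81.1 in aNPC, none in eA, and a small one at percentile 38.6 in lA.

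The strongest distal H3K27ac peak of Pou3f3 lay 16.5 kb downstream in aNPC and 16.1 kb downstream later, between genes, and was the same site at all stages. At chr1:42769837-42771321 in aNPC, it had a −log10 q of 107 at percentile 93.9. In eA the value was 123 at percentile 97.0, and in lA 38.7 at percentile 92.6. H3K4me1 overlapped this acetylated site only in eA in a same-stage comparison, where it had peaks on the far side of the summit with −log10 q of 2.88 and 13.6. Just next to it, 14.6 kb downstream, H3K4me1 was present at all stages, at percentiles 86.9, 83.8 and 76.6. H3K27ac over that neighbour was absent in aNPC, called at percentile 13.2 in eA and at percentile 52.3 in lA. Both sequences are given above. A second site, 23.7 kb upstream of Pou3f3 and nearer to 2610017I09Rik, likewise had H3K4me1 at all stages, at percentiles 54.4, 85.0 and 91.7, and H3K27ac only in lA, at percentile 3.55. The site 7.1 kb downstream showed the other order: H3K4me1 at all stages and H3K27ac at percentile 70.8 in aNPC, 5.96 in eA and absent in lA.

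**Figure D3:**
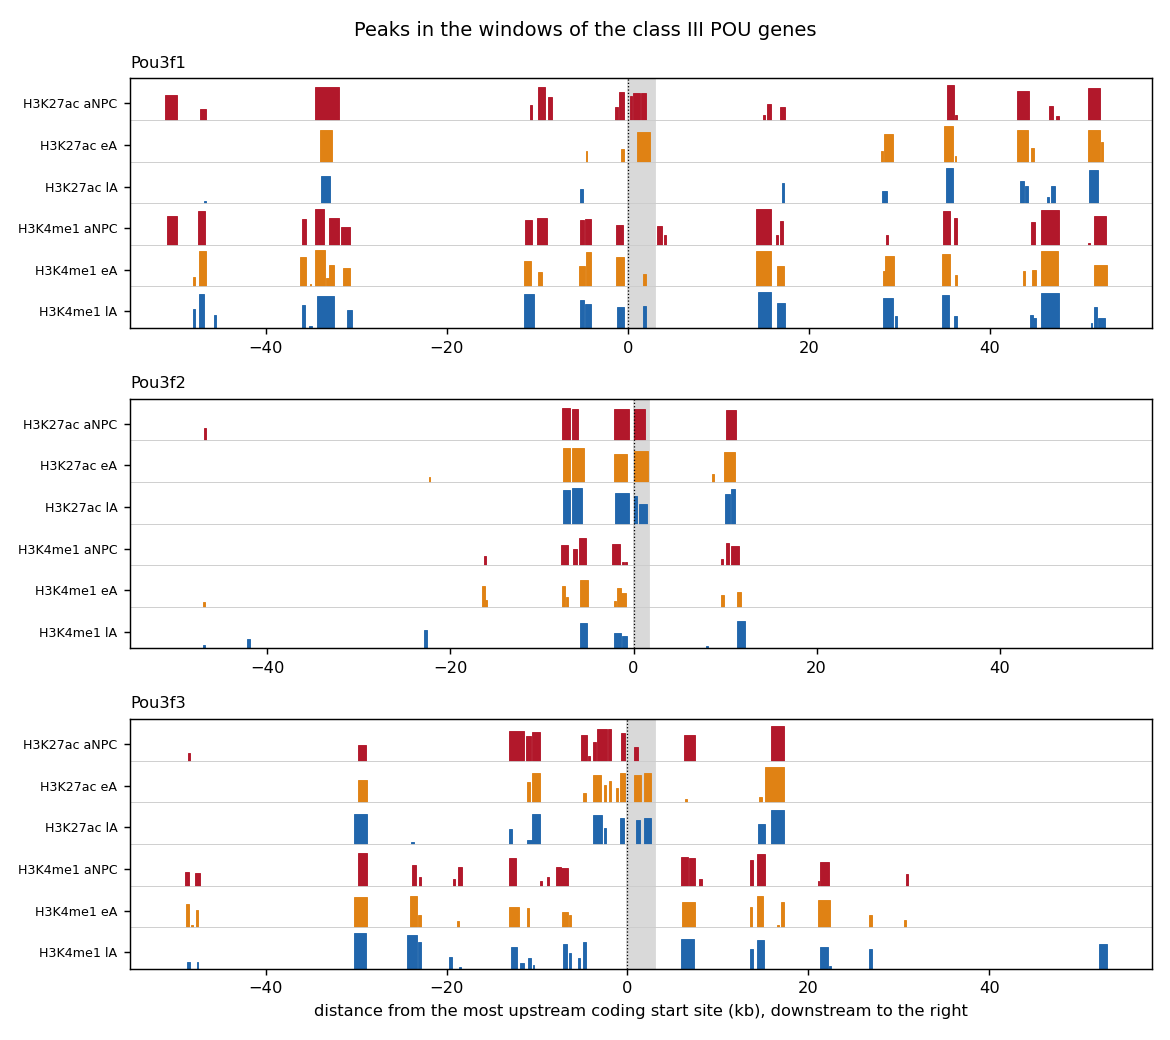
Peaks of both marks at the 3 stages in the windows of Pou3f1, Pou3f2 and Pou3f3, by distance from the start site in kb. Each bar spans a peak, its height is the percentile of the peak in its own list, colours mark the stage and grey shading the gene body. Around Pou3f1 the H3K27ac bars of aNPC have few counterparts in lA, while those of Pou3f2 recur at each stage.

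By the share of the window covered in the 6 lists, the coding genes most like Pou3f3 were Dvl2, Zfp513, Snx17, Slc17a5 and Mark3. The measure was the distance between genes in their 6 percentiles, which was 4.31 for Dvl2 and 5.23 for Mark3, over 6 lists.

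Pou2f1 is the longest of the genes, with 137525 bp on the minus strand, at chr1:167795285-167932809, so its window is the longest and held the most peaks. H3K27ac peaks numbered 25, 16 and 14, and H3K4me1 peaks 37, 36 and 40. H3K27ac covered 5.12%, 3.55% and 2.50% of the window, at percentiles 80.0, 61.0 and 47.1 of coding genes, and H3K4me1 covered 7.89%, 8.24% and 8.71%. The window reaches into Cd247. The upstream start site and an internal one were acetylated at all stages. The internal one, 67.9 kb into the gene, had its peak at percentiles 94.1, 85.6 and 82.6. H3K4me1 promoter peaks were found at this internal promoter and not at the upstream one.

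Within the introns of Pou2f1, a site 88.0 kb from the start was marked by both marks at all stages, with H3K27ac at percentiles 81.7, 81.9 and 71.4. The site 54.7 kb from the start, at percentile 76.0 in aNPC and with a peak at percentile 61.5 in eA, had no H3K27ac in lA, and H3K4me1 was present there at all stages. Upstream of the gene, H3K4me1 had one of its strongest peaks of the window at 21.5 kb, at percentiles 97.8 in aNPC and 97.3 in eA but 28.7 in lA. H3K27ac overlapped that site only in eA, at percentile 33.7. Of 21 distal H3K27ac peaks in aNPC, 12 had none in lA, or 57.1%, near the 52.5% of the whole list. H3K4me1 was called in lA at 5 of the 12, or 41.7%, against 55.4%.

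Pou2f2 carried H3K4me1 and little H3K27ac of its own. Its gene lies on the minus strand at chr7:25877472-25917507. H3K27ac covered 2.21%, 2.16% and 2.05% of the window, and 8, 5 and 5 peaks were called. Of these, 4, 3 and 5 lay at the promoters of the neighbours Grik5 and Zfp574, more than 50 kb from the Pou2f2 start site. Only 1 H3K27ac peak had Pou2f2 as its nearest coding gene in any list, a small one over a coding exon in eA at percentile 28.5. H3K4me1 covered 9.07%, 9.05% and 7.66% in 19, 19 and 14 peaks. The strongest of them, at chr7:25955243-25956466 in aNPC, lay 38.6 kb upstream between genes, nearer to D930028M14Rik. Its −log10 q of 93.2 put it at percentile 99.9 of the aNPC list, and in lA the site was at percentile 98.5. H3K27ac overlapped it only in aNPC, at percentile 13.0. Another strong H3K4me1 peak lay over the far end of Pou2f2, 39.1 kb into the gene at percentile 97.3 in aNPC.

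Pou4f1 was the member with the fewest peaks. On the minus strand at chr14:104862737-104867216, it had 2, 4 and 3 peaks of H3K27ac and 3, 4 and 5 of H3K4me1. H3K27ac covered 0.50%, 0.92% and 0.92% of the window, which is percentile 22.3 of coding genes in aNPC and 25.7 at the later stages. Its H3K27ac peaks sat at the promoter and in the first 1 kb of the gene, apart from weak ones in the neighbouring Rnf219. The intronic H3K27ac peak, 685 bp from the start site in aNPC, was at percentiles 30.4, 45.6 and 75.1.

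At Pou6f1, the share of the window with H3K27ac was close at all stages. The gene lies on the minus strand at chr15:100405750-100430415, in a window shared with Tcfcp2, Dazap2, Smagp and Bin2. H3K27ac covered 6.57%, 6.49% and 6.13%, with 9, 13 and 13 peaks, and H3K4me1 8.09%, 9.33% and 10.5%, with 14, 17 and 18 peaks. Among coding genes these H3K4me1 shares stood at percentiles 74.1, 73.6 and 80.8, and the median coding gene had 5.05%, 6.11% and 6.29%. With flanks of 20 kb, the H3K27ac share in lA minus that in aNPC was -2.84 percentage points, against -0.437 with 50 kb. The strongest H3K27ac peaks of the window were those at the promoters of Dazap2, at percentile 98.9 in aNPC, and of Tcfcp2, at percentile 97.7. Among peaks nearest to Pou6f1 itself, the promoter was at percentiles 78.5 and 86.1 in aNPC and eA. In lA the peak overlapping the promoter was a small one at percentile 35.5, and a stronger one at percentile 86.6 lay in the intron 768 bp downstream. A distal site 4.9 kb upstream bore both marks at all stages, with H3K27ac at percentiles 77.6, 68.5 and 74.7. Downstream of the gene, 25.6 kb from the start, H3K4me1 was called at all stages, while the H3K27ac peaks there were at percentiles 39.5 and 19.1 in aNPC and 16.1 each in eA, with none in lA. An adjoining H3K27ac peak, 26.3 kb from the start in eA, was not called in aNPC and stood at percentiles 48.7 in eA and 24.3 in lA.

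**Figure D4:**
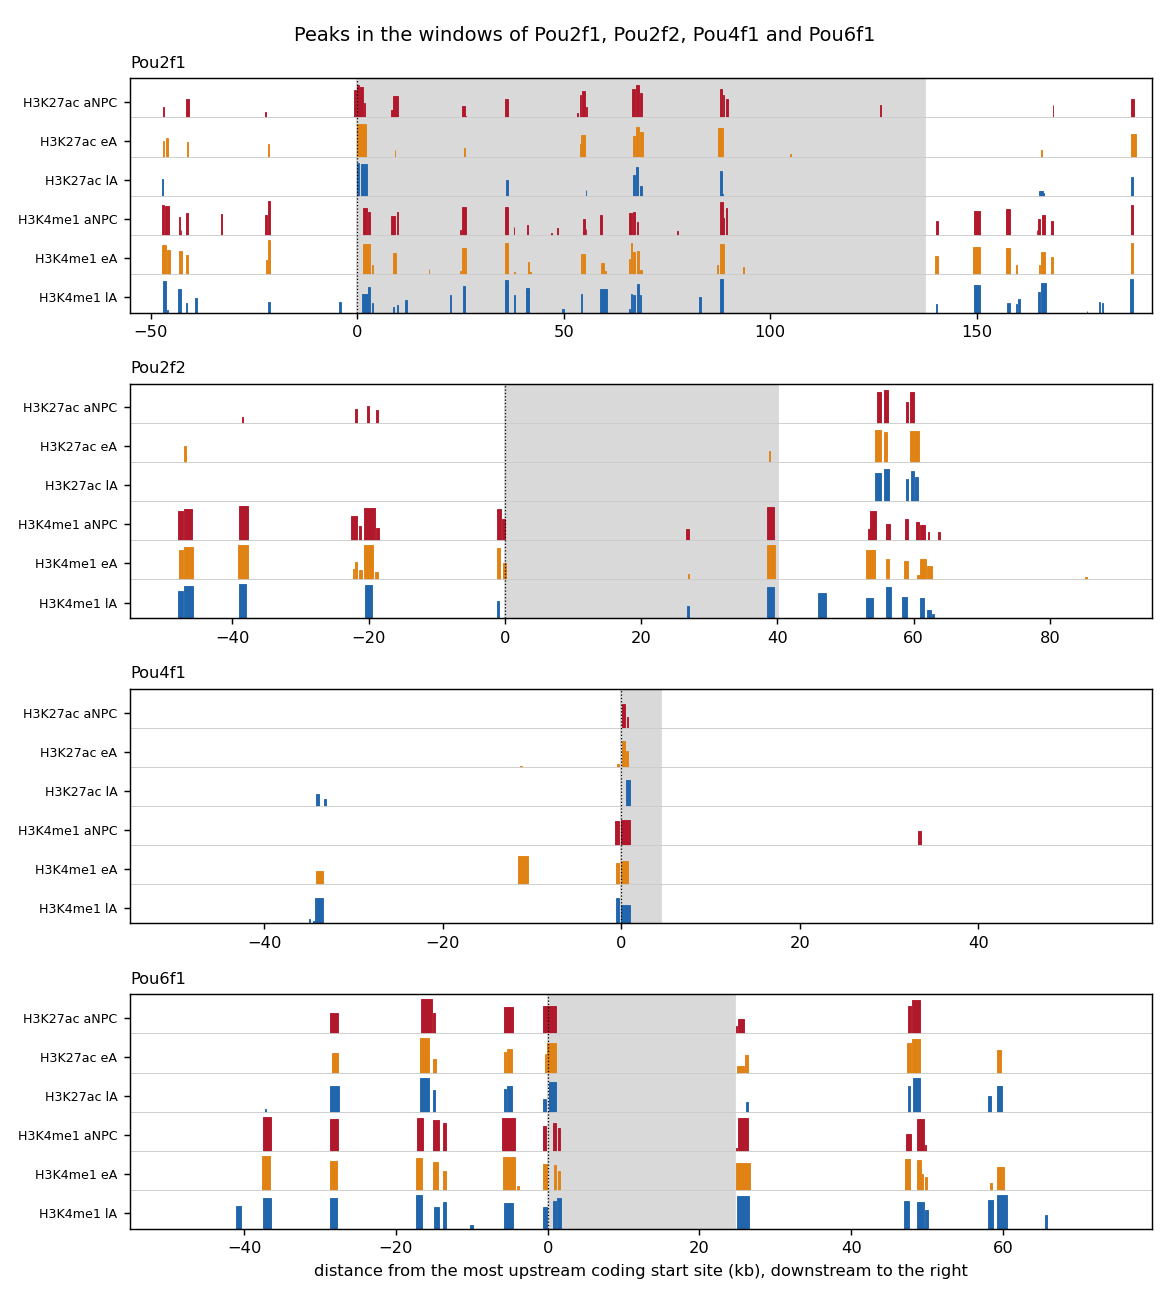
Peaks of both marks at the 3 stages in the windows of Pou2f1, Pou2f2, Pou4f1 and Pou6f1, by distance from the most upstream start site in kb. Bars span the peaks, bar height is the percentile in the list, colours mark the stage and grey shading the gene body. The Pou2f2 body and promoter carry H3K4me1 bars with a single small H3K27ac bar in eA.

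When the distal H3K27ac peaks of the 7 windows were followed between aNPC and lA, most of those in lA had been called in aNPC too. Of 60 distal peaks in aNPC, 34 overlapped no H3K27ac peak in lA, or 56.7% (95% Wilson interval 44.1 to 68.4). For all distal peaks of the aNPC list this was 52.5%. In the reverse direction, 13 of 46 distal lA peaks overlapped none in aNPC, or 28.3% (17.3 to 42.5), against 57.9% of the distal peaks of the whole lA list. The intervals cover counting error over peaks only, and peaks of 1 window are not independent of each other. Of the 34, H3K27ac was still called in eA at 35.3%, against 18.3% in the whole list, and H3K4me1 was called in lA at 52.9%, against 55.4%. Of the 13, H3K4me1 was called in aNPC at 8, or 61.5%, and in eA and lA at 84.6% each, while the whole list had 46.5%, 74.1% and 80.9%.

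A peak was counted as unique to a stage when neither of the other stages had an H3K27ac peak over it. Such were 24 of 84 peaks in aNPC, 13 of 71 in eA, and 8 of 65 in lA. These are 28.6%, 18.3% and 12.3%, and the whole lists had 36.0%, 17.7% and 27.7%. The lA count was 4 at a −log10 q of at least 5 or with lists of equal length, and 1 with 20 kb flanks or with nearest start sites, while the eA count was 8 at that threshold and 7 with 20 kb flanks. Of the 24 in aNPC, Pou3f1 held 9 and Pou2f1 held 8. Of the 8 in lA, no gene held more than 2, and Pou3f2 and Pou2f2 held none.

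Distal H3K27ac in the windows overlapped H3K4me1 of the same stage at 70.0%, 73.5% and 71.7% of peaks by stage, against 82.2%, 88.4% and 84.5% in the whole lists. The share differed between the genes. It was 3 of 12, 4 of 12 and 5 of 10 at Pou3f3, and 4 of 4, 7 of 7 and 8 of 8 at Pou6f1. Of the lA distal peaks, 67.4% overlapped H3K4me1 of aNPC, against 65.7% in the whole list.

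**Figure D5:**
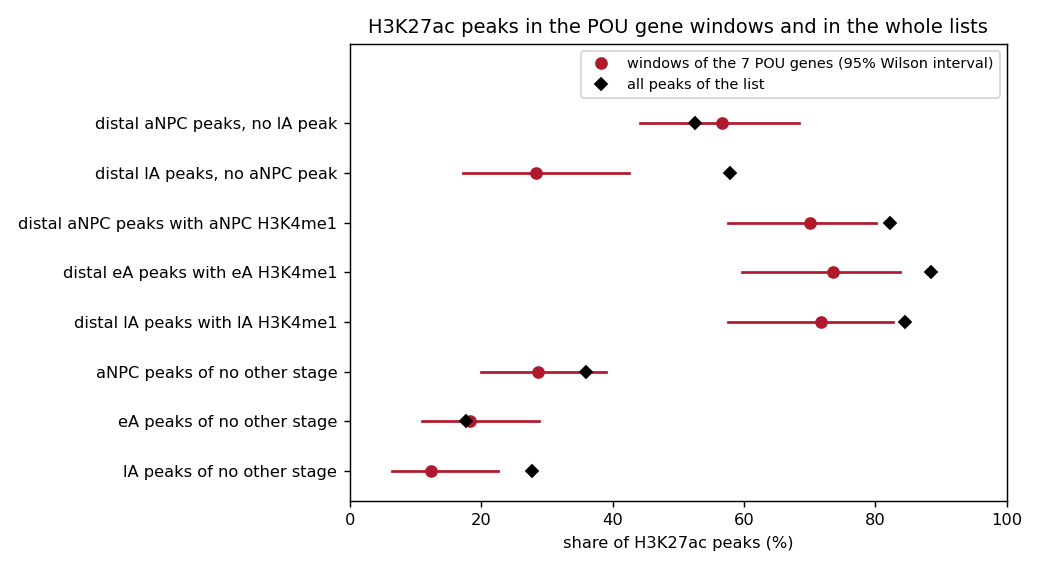
Shares of H3K27ac peaks, in percent, in the windows of the 7 POU genes (red points with 95% Wilson intervals, counting error only) and in the whole lists (black diamonds). The share of distal lA peaks without an aNPC peak is 28.3% in the windows and 57.9% in the whole list.

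The octamer ATGCAAAT and the Brn2 motif of the study, ATGAATATTC, were searched as exact letters in 300 bp centred on every summit, reading both strands. Sites that differ from these letters were not counted, so a lack of hits does not show that no POU site was there. Neither motif contains the other, and the motifs were counted separately. Among the H3K27ac peaks of the windows, the octamer was found at 1 of 84, 1 of 71 and 1 of 65 by stage. In the whole lists it was found at 1.55%, 1.45% and 1.29% of such windows. Among the H3K4me1 peaks it was found at 1 of 126, 1 of 130 and 1 of 131, against 2.35%, 2.12% and 2.12%. In aNPC this octamer lay in the 300 bp around the summit but outside the called H3K4me1 peak. The Brn2 motif was found at no peak of the 7 windows in any list, and at no more than 0.103% of summit windows in the whole lists. All octamers found lay in introns of Pou2f1, at 3 positions. The one at chr1:167878509-167878516 lay under both marks in eA and under H3K4me1 in lA. Its surroundings are given here on the strand of Pou2f1, with the octamer, read in reverse, in capitals.
Pou2f1 intron, H3K27ac in eA, chr1:167878281-167878580: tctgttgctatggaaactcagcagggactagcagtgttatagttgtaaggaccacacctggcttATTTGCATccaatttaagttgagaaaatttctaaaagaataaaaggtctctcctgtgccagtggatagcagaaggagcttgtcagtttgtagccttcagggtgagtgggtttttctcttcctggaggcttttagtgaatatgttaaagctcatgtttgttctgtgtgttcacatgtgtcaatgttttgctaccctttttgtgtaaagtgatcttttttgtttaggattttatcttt

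The same was read for 6 further POU genes, Pou1f1, Pou2f3, Pou3f4, Pou4f2, Pou4f3 and Pou5f1. Promoter H3K27ac was present at Pou2f3 and Pou3f4 in aNPC, at Pou2f3 in eA and at none of the 6 in lA. H3K4me1 was present at the promoters of Pou2f3, Pou3f4, Pou4f2 and Pou4f3 at all stages, and at those of Pou1f1 and Pou5f1 at none. In the windows of Pou4f2 and Pou4f3, the relatives of Pou4f1, 0 H3K27ac peaks were called in any list. Pou3f4, the remaining class III gene, had 9, 6 and 5 H3K27ac peaks and 8, 7 and 4 H3K4me1 peaks in its window.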

How the data were processed

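ChIP-seq of H3K27ac and of H3K4me1 was made in aNPC, eA and lA. The authors aligned the reads to mm9 with Bowtie, merged the 2 replicates of each mark and stage with SAMtools (version 0.1.19 in the submitters' processing notes), and called peaks with MACS2 without an input control. The deposited lists give positions, summits and the −log10 q at each summit, as the authors' peak caller wrote them. The depth of the merged libraries is unknown, so −log10 q was used only within a list. Other samples of the 51 were not used here, and 8 of these have labels that conflict.

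Genes, start sites and exons were taken from the GENCODE mouse annotation made for the same build. Peaks on the mitochondrial genome were set aside. Overlap meant at least 1 bp. The share of the window covered was computed for all 22359 coding genes. The 5 genes most like Pou3f3, with windows apart from its own, were those at the smallest Euclidean distance in 6 percentiles. For each member, peaks at its promoter and some of the strongest distal peaks of the lists were described. Wilson intervals at 95% came from statsmodels 0.14.6, with Python 3.11.15, numpy 2.4.6 and pandas 2.3.3. Sequences were read with pysam 0.24.0 and samtools 1.23.1, and the Brn2 motif from the study's motif table. Overlap and interval functions were tested on simulated data. The genes, gene lists and markers were chosen with earlier results of these data known, and some listed genes are not reported here. Alternatives were a −log10 q of at least 5, lists of equal length, 20 kb flanks, nearest start site, joined peaks, other promoters, summit overlap and 200 bp motif windows. With nearest start sites, the share covered was still taken of the full window.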

Additional observations from a re-analysis of the deposited data

How the results depend on the processing

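No paired analysis was possible because the lists hold merged replicates, and for the same reason no replicate could be left out. Of 129 comparisons with an alternative, 98 stayed close (a count or difference within 1.5 times, a share within its interval), 28 moved and 3 reversed, and the cause was not tested unless the alternative itself removes peaks or sequence. With 20 kb flanks, the windows held 40 H3K27ac peaks in lA and 79, 75 and 72 H3K4me1 peaks in aNPC, eA and lA. With peaks kept only where the nearest start site was the member's, these were 35, 76, 73 and 69. Under both, the H3K4me1 counts fell over the stages, where the main counts rose. With lists of equal length the H3K4me1 counts were 126, 112 and 104 and fell as well. Joining peaks under 500 bp apart left 51 H3K27ac peaks in aNPC. When the summit itself had to lie in the promoter, 3 members had promoter H3K27ac in aNPC, and when the H3K27ac summit had to lie in an H3K4me1 peak, 56.5% of distal lA peaks did. Peaks unique to eA numbered 8 at a −log10 q of at least 5 and 7 with 20 kb flanks. Peaks unique to lA numbered 4 at that threshold, 4 with lists of equal length, and 1 each with 20 kb flanks and with nearest start sites. The octamer was found at 0 H3K27ac peaks in aNPC with 200 bp windows and at 0 in lA at the stricter threshold. The share of the window covered by H3K27ac, lA minus aNPC, reversed with 20 kb flanks at Pou2f2 (0.0162 percentage points) and Pou4f1 (-0.139), and at Pou4f1 with nearest start sites (-0.0593). At Pou2f2 it was 0 with nearest start sites, and at a −log10 q of at least 5 it was -0.0207 at Pou2f2 and 0.179 at Pou4f1. For Pou3f1 the same difference was -11.1 points with 20 kb flanks and -4.63 with nearest start sites, against -7.24. With 20 kb flanks it was -5.62 at Pou3f3, 0.832 at Pou3f2 and -2.84 at Pou6f1, and with nearest start sites -1.15 at Pou6f1, against -1.77, 0.152 and -0.437 with 50 kb flanks.

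The lists were called on merged replicates of unknown depth, without an input control, so that the absence of a peak says only that none was called. A difference between stages can come from a different depth as well as from a different mark, and the 2 cannot be told apart. With 50 kb on each side, windows reach into neighbouring genes, and the gene that a distal peak acts on is not known.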
